A study of Mus musculus with 6 samples.

Results

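The loci of the RUNX transcription factors and their shared partner, Runx1, Runx2, Runx3 and Cbfb, were followed in ATAC-seq libraries of mouse long-term haematopoietic stem cells (LT-HSCs) that were kept free or squeezed. ATAC-seq measures chromatin accessibility through a transposase that inserts sequencing adapters into open DNA. A peak of the deposited consensus list was counted to a locus where its midpoint lay inside the gene, or within 50 kb of one of its ends with no nearer protein-coding gene. By this rule 47 of 42632 peaks belonged to the 4 loci: 18 to Runx1, 16 to Runx2, 12 to Runx3 and 1 to Cbfb. Of these, 4 peaks, 1 per gene, had their midpoint within 1 kb of an end of that gene and are called gene-end peaks, and the other 43 are called distal. Inside the genes lay 35 peaks, and 12 lay in the flanks. In the confined libraries the Runx2 locus took a larger part of all counts in peaks, with a higher mean at 14 of its 16 peaks. These 14 were below the mean over all peaks in the unconfined libraries. Of all peaks below that level, 84.3% had a higher confined mean. The strongest peak of each of the 4 loci had a lower mean in the confined libraries, but no single member peak passed the test. Of all peaks above the mean over all peaks in the unconfined libraries, 14.4% had a higher confined mean.

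RUNX proteins are DNA-binding transcription factors that read the site TGTGGT through the runt domain, and CBF beta, the product of Cbfb, does not bind DNA itself but holds them on it. Runx1 is required for blood stem cells to arise in the embryo and shapes their later output, Runx2 is the master regulator of bone-forming cells, and Runx3 acts in T and NK lymphocytes and in sensory neurons. Each Runx gene is known to be transcribed from a distal promoter, P1, and a proximal promoter, P2, and a blood stem cell enhancer is known in the first intron of Runx1.

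The cells were young LT-HSCs of the C57BL/6 strain, 10 to 16 weeks old, taken from bone marrow as cells that carry Sca1 and cKit and lack lineage markers, CD34 and Flt3. In the unconfined group (n = 3 libraries) the cells were assayed after 16 h in suspension. In the confined group (n = 3) they spent 13 h in suspension, attached to glass coated with fibronectin for 0.5 h, and then stayed 2 h below a second coverslip that left a height of 5 µm. They were then lifted off with a dissociation reagent, so attachment and release cannot be told apart from confinement. The labels call the samples biological replicates and give no animals, so the p-values measure the spread between these libraries, which may in part be technical.

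Counts in peaks amounted to 304898, 1229478 and 983863 in the unconfined group (libraries 1, 2 and 3) and 340922, 221390 and 128257 in the confined group. The member peaks held 324, 1381 and 1048 of the unconfined counts and 386, 265 and 133 of the confined ones. Levels are given in CPM, counts per 1000000 counts in all peaks of the same library, and 3 counts correspond to 2.44 to 9.84 CPM in the unconfined libraries and 8.80 to 23.4 CPM in the confined ones. Across the 47 member peaks, log2(CPM + 1) correlated at r = 0.716 to 0.834 between unconfined libraries, and at -0.233 to 0.332 between confined libraries. Over all peaks r was 0.0194 to 0.0856 between confined libraries. With the unconfined libraries it was 0.42 to 0.52 for confined library 1 and -0.03 to 0.05 for confined libraries 2 and 3. Confined libraries 2 and 3 thus carried little of the peak-to-peak pattern of the unconfined ones, and results are given with confined library 1 alone as well. Counts in peaks within 1 kb of any gene end made up 38.6 to 43.0% of the unconfined and 23.9 to 31.0% of the confined libraries, and the part of this difference in the results at single loci was not tested. Gene-end peaks were found for 7 of 12 LT-HSC marker genes (summed CPM of 268 to 307 unconfined and 218 to 249 confined), with none at Ly6a, Slamf1, Mecom, Gata2 and Tek. Of the progenitor genes that the sort excludes, Cd34 and Flt3, each had such a peak (summed CPM of 35.6 to 65.6 unconfined and 39.0 to 64.5 confined). Peaks stood at the ends of 0 of 7 T and NK cell genes, 3 of 7 myeloid genes (19.7 to 48.0 and 35.2 to 78.0 CPM), 4 of 7 erythroid and megakaryocyte genes (120 to 136 and 85.8 to 140) and 2 of 6 stroma and bone genes (16.3 to 32.8 and 18.1 to 54.6). The sum over the 3 B cell genes with such peaks was 55.8 to 74.8 CPM unconfined and 101 to 114 confined, with no peak at Pax5 or Ms4a1. The part of these cell types in the results was not tested.

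The start regions are shown because a peak lies over each of the 6 listed starts and their sequences differ. The 150 bases before each listed start (RefSeq, GRCm38.p6, the assembly also called mm10), 5′ to 3′ along the gene, are from chr16:92826075-92826224 and chr16:92697330-92697479 (minus strand) for Runx1 P1 and P2, chr17:44814628-44814777 (minus strand) for Runx2 P1, chr4:135120495-135120644 and chr4:135152395-135152544 (plus strand) for Runx3 P1 and P2, and chr8:105170524-105170673 (plus strand) for Cbfb. Capitals mark, on either strand, the RUNX sites TGTGGT and TGCGGT, the GC box GGGCGG and the CCAAT box ATTGG.
Runx1 P1: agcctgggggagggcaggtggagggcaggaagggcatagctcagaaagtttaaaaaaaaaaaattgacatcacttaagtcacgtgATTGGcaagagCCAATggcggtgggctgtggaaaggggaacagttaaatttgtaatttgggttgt
Runx1 P2: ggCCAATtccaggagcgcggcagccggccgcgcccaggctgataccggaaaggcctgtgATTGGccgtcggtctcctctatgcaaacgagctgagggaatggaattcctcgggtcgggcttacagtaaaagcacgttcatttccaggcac
Runx2 P1: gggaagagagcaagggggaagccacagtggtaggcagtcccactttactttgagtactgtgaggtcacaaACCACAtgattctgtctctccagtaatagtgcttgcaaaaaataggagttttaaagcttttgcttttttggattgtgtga
Runx3 P1: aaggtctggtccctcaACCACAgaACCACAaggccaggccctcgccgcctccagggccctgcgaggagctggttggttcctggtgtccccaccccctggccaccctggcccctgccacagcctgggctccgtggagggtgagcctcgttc
Runx3 P2: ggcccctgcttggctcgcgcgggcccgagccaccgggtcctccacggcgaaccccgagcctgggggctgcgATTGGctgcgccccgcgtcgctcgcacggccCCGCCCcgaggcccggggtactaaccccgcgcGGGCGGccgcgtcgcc
Cbfb start: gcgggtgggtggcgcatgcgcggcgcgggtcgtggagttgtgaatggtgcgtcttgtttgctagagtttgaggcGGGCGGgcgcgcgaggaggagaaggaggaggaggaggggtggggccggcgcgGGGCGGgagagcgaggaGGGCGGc

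Over windows of 300 bases, 250 before to 50 after the start, the P1 starts of Runx1 and Runx2 were poor in G and C (45.0% and 45.3%), at percentiles 22.0 and 23.1 of 32851 promoter windows. Runx1 P2 (69.0%), Cbfb (69.7%) and Runx3 P2 (77.3%) stood at percentiles 88.9, 89.9 and 97.8, and Runx3 P1 (63.7%) at 79.1. RUNX sites TGTGGT were found 2 times at Runx1 P1, 3 times at Runx2 P1 and 2 times at Runx3 P1, and these letters were not in the windows of Runx1 P2, Runx3 P2 and Cbfb. Of all windows 16.8% hold TGTGGT, and 6.45% hold TGCGGT, which was found 1 time, at Runx2 P1. The Cbfb window held 4 GC boxes and that of Runx3 P2 held 3, a motif of 35.7% of all windows. The CCAAT box, in 37.4% of windows, was found 2 times each at Runx1 P1, Runx1 P2 and Runx3 P1 and 1 time at Runx3 P2. CCGGAAG (an ETS site, in 8.86% of windows) and AGATAA (a site of zinc finger factors such as Gata2, in 11.2%) were searched on both strands too and not found in these letters. A match is a run of letters, and binding was not measured.

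The 3 P1 windows share a run of 18 bases, shown because it holds a pair of RUNX sites (ACCACA, which reads as the site TGTGGT on the other strand) in all 3 genes. It is in capitals below, within 30 bases.
Runx1 P1: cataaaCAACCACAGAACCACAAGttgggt
Runx2 P1: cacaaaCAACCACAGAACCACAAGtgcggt
Runx3 P1: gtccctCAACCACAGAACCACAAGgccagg

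These stretches lie at chr16:92826025-92826054 and chr17:44814583-44814612 (minus strand) and chr4:135120503-135120532 (plus strand). The shared run begins 26 and 21 bases after the listed starts of Runx1 and Runx2, and 136 bases before that of Runx3 (an offset of -136). Only 4 of the 32851 promoter windows held it: those of the 3 Runx genes and that of Gm16225, a noncoding gene over the start of Runx3 whose window shares the Runx3 sequence. The 3 peaks over this pair of sites did not share 1 direction: the confined mean was lower at Runx1 and Runx3 and higher at Runx2, as the values below show.

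Runx1, the family member that blood stem cells depend on (chr16:92601466-92826074, mm10, minus strand), had the strongest member peak, 3668 bp inside the gene from P1. This peak, chr16:92822057-92822756, held 131, 98.4 and 139 CPM unconfined and 64.5, 40.7 and 23.4 CPM confined, in the order of the libraries (40, 121 and 137 against 22, 9 and 3 counts). Every confined library was below every unconfined one, and the peak stood at percentile 99.3 of the unconfined means of all peaks. Its mean was 123 ± 21.6 CPM (SD, n = 3) unconfined and 42.9 ± 20.7 confined. In bulk libraries fewer cells with an open site and less opening per cell cannot be told apart. With scaling by the trimmed mean of tested peaks (TMM), the log2 fold change was -0.65 ± 0.35 (SE), and the edgeR adjusted p of 0.231 did not pass 0.05. With library totals as the only scaling it was -1.38 (edgeR adjusted p = 0.0358). With confined library 1 alone it was -1.13 (adjusted p = 0.376). The 2 scalings set different zero lines, since over the 9084 tested peaks the median was -0.02 with TMM and -0.68 with totals (log2 scale).

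The peak over Runx1 P1, chr16:92825745-92826444, held 52.5, 48.0 and 56.9 CPM unconfined and 44.0, 27.1 and 7.80 CPM confined (16, 59 and 56 against 15, 6 and 1 counts). Its groups did not overlap, and the confined values spread far more: 52.5 ± 4.47 against 26.3 ± 18.1 CPM (SD, n = 3 each). The log2 fold change was -0.08 ± 0.36 (SE; adjusted p = 0.921 by edgeR), and -0.75 with totals as scaling (adjusted p = 0.155). Without 1 library at a time it ranged from -0.59 (without unconfined library 1, and as low without confined library 1) to -0.07, and none was called. The peak over P2, chr16:92697132-92697831, was weaker, with 29.5, 22.0 and 19.3 CPM unconfined and 26.4, 31.6 and 0 CPM confined, and its groups overlapped. The part of P1 in the counts of both start peaks was 64.0, 68.6 and 74.7% unconfined and 62.5, 46.2 and 100% confined, with means of 69.1 ± 5.35% and 69.6 ± 27.6% (SD, n = 3; exact permutation p = 1, two-sided). A shift between the promoters was thus not detectable at this depth.

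Over the whole locus 7 Runx1 peaks had a lower confined mean and 11 a higher one, and the further tested peaks were among the lower. The tested Runx1 peaks reached the level of the filter on low counts in every unconfined library and not in every confined one. Being tested thus favoured a lower confined mean. At chr16:92801515-92802214, 24210 bp inside the gene from P1, the counts were 12, 67 and 54 unconfined and 11, 5 and 0 confined, or 49.6 ± 8.85 and 18.3 ± 16.6 CPM (SD, n = 3). At chr16:92620779-92621478, near the far end of the gene, they were 13, 77 and 62 against 14, 5 and 0, or 56.1 ± 11.7 and 21.2 ± 20.6 CPM. Neither pair of groups overlapped. The log2 fold changes were -0.54 ± 0.41 and -0.49 ± 0.39 (SE; edgeR adjusted p = 0.435 and 0.466), and with totals as scaling -1.18 and -1.13 (adjusted p = 0.0421 and 0.0475). A neighbour of the first, chr16:92800642-92801341, also did not overlap (31.9 ± 1.26 against 12.9 ± 11.2 CPM, SD, n = 3). It did not pass the filter on low counts, which kept 10 of the 47 member peaks: 4 of Runx1, 2 of Runx2, 3 of Runx3 and that of Cbfb.

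By region, the 8 Runx1 peaks between P1 and P2 averaged 33.2 ± 3.09 CPM per peak unconfined and 21.3 ± 8.35 confined (SD, n = 3), and no test was made of this region. The 4 peaks from P2 to the far end stood at 23.9 ± 3.13 and 19.1 ± 8.76 CPM per peak. Both flanks were low in the unconfined libraries, at 12.9 ± 3.63 CPM per peak upstream and 10.6 ± 7.21 downstream, and stood at 15.7 ± 10.2 and 26.2 ± 14.6 CPM confined. The peak chr16:92696442-92697141, which borders the P2 peak, was the only 1 of 18 Runx1 peaks with every confined library higher (6.56, 8.95 and 16.3 against 23.5, 18.1 and 39.0 CPM), against 16.8% of all peaks. In confined library 3, which has the fewest counts, 8 of the 18 Runx1 peaks had 0 counts, against 0 of 18 in confined libraries 1 and 2.

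**Figure D1:**
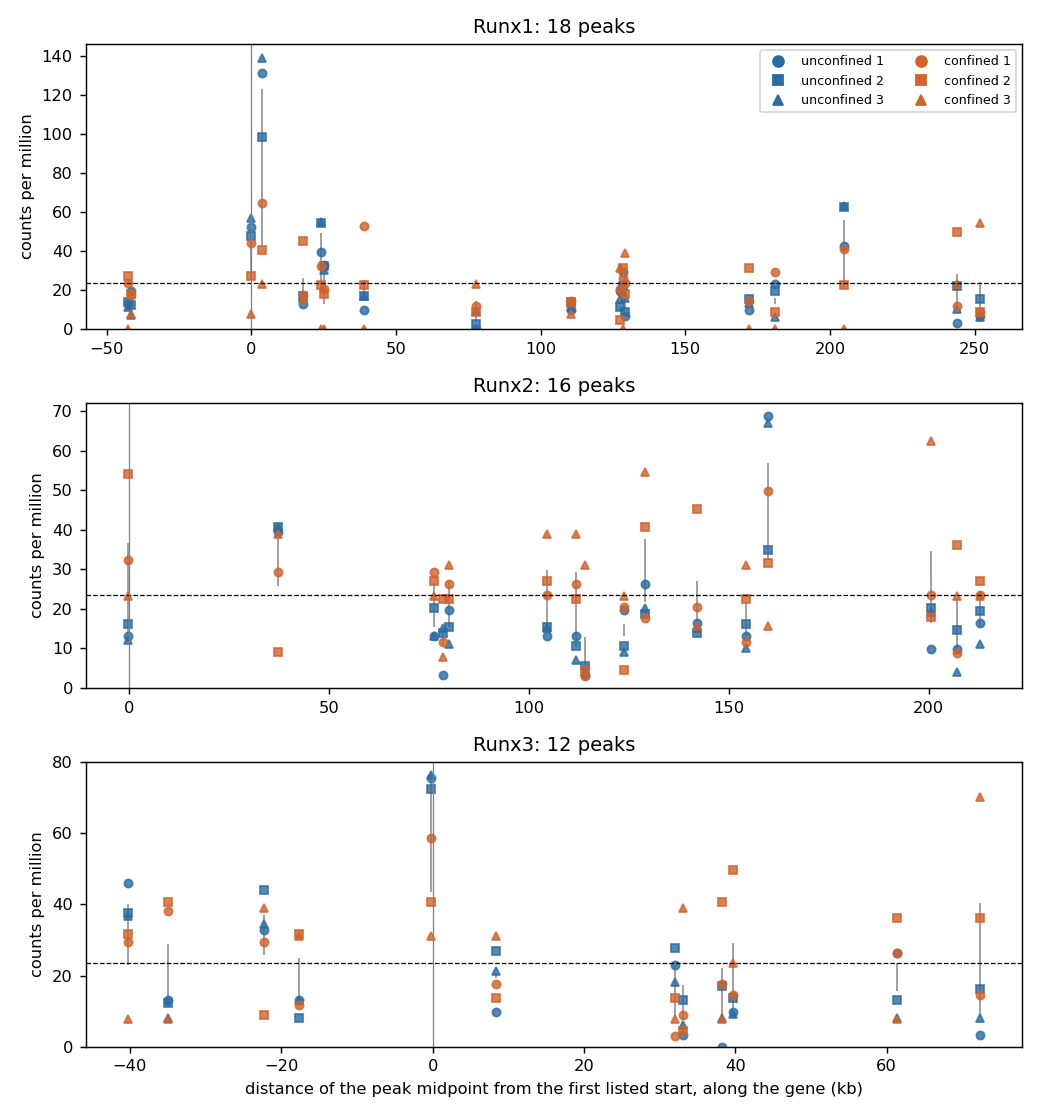
CPM of each peak in each library (symbols, 6 libraries) against the distance of its midpoint from the first listed start in kb, for Runx1, Runx2 and Runx3; grey lines join the group means, and the dashed line is the mean over all peaks, 23.5 CPM. The peaks that rise above the dashed line in blue (unconfined) have lower means in orange (confined), some of them below the line, and the low Runx2 peaks lie higher in orange.

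Runx2, the bone regulator (chr17:44495987-44814797, minus strand), is the locus whose summed counts were called higher in the confined libraries. Its P1 start peak, chr17:44814422-44815121, was low in the unconfined libraries, with 13.1, 16.3 and 12.2 CPM, and stood at 32.3, 54.2 and 23.4 CPM in the confined ones (4, 20 and 12 against 11, 12 and 3 counts). Every confined library was above every unconfined one, at 36.6 ± 15.9 against 13.9 ± 2.13 CPM (SD, n = 3). The peak did not pass the filter. In a fit with no filter its log2 fold change was 1.20 ± 0.46 (SE, edgeR adjusted p = 0.0872), with 1.47% of all peaks called higher there. It was the only 1 of the 6 peaks over listed starts with a higher confined mean, and also the lowest of the 6 in the unconfined libraries. Of all peaks with an unconfined mean below 23.5 CPM, 84.3% had a higher confined mean. The midpoint of the start peak also lies inside Supt3, a subunit gene of a histone acetyltransferase complex. Supt3 overlaps the start of Runx2, so the peak may belong to either gene.

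The strongest Runx2 peak, chr17:44654419-44655118, lay 158781 bp from the nearer end of the gene, with 68.9, 35.0 and 67.1 CPM unconfined and 49.9, 31.6 and 15.6 CPM confined. The groups overlapped (57.0 ± 19.1 and 32.4 ± 17.1 CPM, SD, n = 3). The log2 fold change was 0.15 ± 0.36 (SE, edgeR adjusted p = 0.841) with TMM and -0.56 with totals, so its sign rests on the scaling. The next, chr17:44776894-44777593, whose midpoint lies 125 bp from an end of Supt3, held 39.4, 40.7 and 40.7 CPM unconfined and 29.3, 9.03 and 39.0 CPM confined. Its log2 fold change was -0.07 ± 0.42 (SE, edgeR adjusted p = 0.939) with TMM and -0.71 with totals. The third, chr17:44685329-44686028, held 26.2, 18.7 and 20.3 CPM unconfined against 17.6, 40.7 and 54.6 confined, and its groups overlapped.

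The remaining 12 distal Runx2 peaks had unconfined means of 4.35 to 16.5 CPM, and in all 12 the confined mean was higher, at 12.9 to 34.6 CPM. Of all peaks with an unconfined mean below 23.5 CPM, the mean over all peaks, 84.3% had a higher confined mean. In 5 of the 12, at 76.3, 80.0, 104.5, 111.8 and 212.8 kb from the start, every confined library was above every unconfined one, as at 16.8% of all peaks. The 15 peaks of the gene body other than the start peak averaged 18.2 ± 0.748 CPM per peak unconfined and 25.5 ± 4.64 confined (SD, n = 3).

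Runx3, the lymphocyte member (chr4:135120645-135177990, plus strand), had its strongest peak over P1. This peak, chr4:135120048-135120747, held 75.4, 72.4 and 76.2 CPM unconfined and 58.7, 40.7 and 31.2 CPM confined (23, 89 and 75 against 20, 9 and 4 counts). The groups did not overlap, at 74.7 ± 2.03 against 43.5 ± 14.0 CPM (SD, n = 3). With TMM the log2 fold change was 0.00 ± 0.32 (SE, edgeR adjusted p = 0.998) and with totals -0.68 (adjusted p = 0.195), the same as the median of all tested peaks on that scale. The noncoding gene Gm16225 lies over the same peak.

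The peak over Runx3 P2, chr4:135152263-135152962, held 23.0, 27.7 and 18.3 CPM unconfined and 2.93, 13.6 and 7.80 CPM confined (7, 34 and 18 against 1, 3 and 1 counts). It was lower in every confined library (23.0 ± 4.68 against 8.09 ± 5.31 CPM, SD, n = 3). It did not pass the filter, and with no filter its log2 fold change was -1.82 ± 0.65 (SE, edgeR adjusted p = 0.0651), with 4.27% of all peaks called lower there. P1 made up 76.7, 72.4 and 80.6% of the counts of both starts unconfined and 95.2, 75.0 and 80.0% confined, and 76.6 ± 4.14% against 83.4 ± 10.5% did not differ beyond the spread (exact permutation p = 0.5, two-sided, n = 3 each). The confined shares rest on 5 P2 counts in all 3 libraries together.

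**Figure D2:**
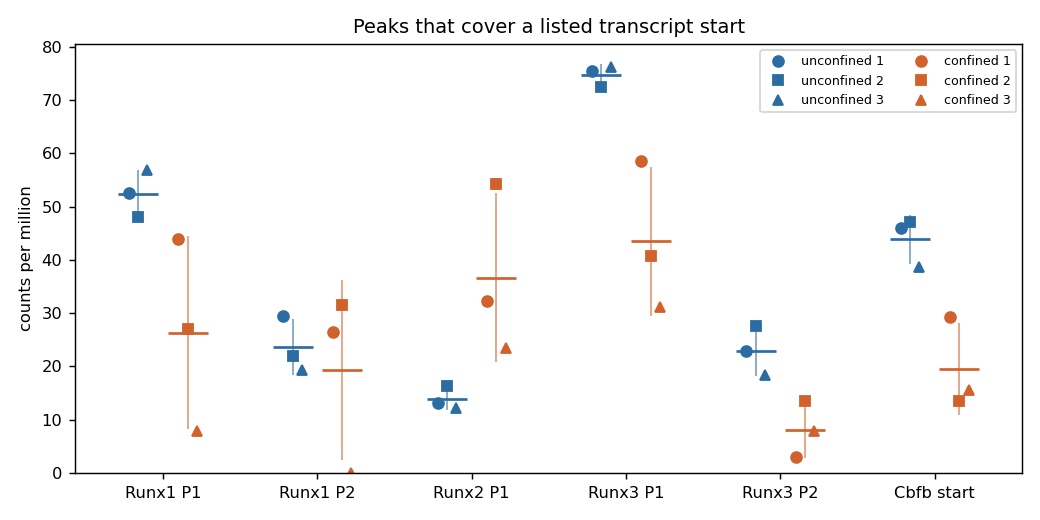
CPM in each library (symbols) at the 6 peaks over listed transcript starts, with the group mean (horizontal line) and SD (vertical line, n = 3). The confined libraries lie below the unconfined ones at Runx1 P1, Runx3 P1, Runx3 P2 and Cbfb, above them at Runx2 P1, and the groups overlap at Runx1 P2.

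Upstream of Runx3, the peak chr4:135080055-135080754, 40241 bp before the gene, held 45.9, 37.4 and 36.6 CPM unconfined and 29.3, 31.6 and 7.80 CPM confined. Its groups did not overlap (40.0 ± 5.16 and 22.9 ± 13.1 CPM, SD, n = 3), and the log2 fold change was 0.08 ± 0.41 (SE, edgeR adjusted p = 0.934) with TMM and -0.57 with totals. The peak chr4:135098036-135098735, 22260 bp before the gene, held 32.8, 43.9 and 34.6 CPM against 29.3, 9.03 and 39.0, which overlapped (-0.01 ± 0.43 on the log2 scale, SE; adjusted p = 0.995 by edgeR). The 4 upstream peaks averaged 24.9 ± 1.61 CPM per peak unconfined and 25.6 ± 3.64 confined (SD, n = 3). Beyond P2 the means were higher in the confined libraries: the 3 peaks up to the far end stood at 8.94 ± 5.23 and 22.9 ± 8.98 CPM per peak, and the 2 downstream peaks at 12.5 ± 3.79 and 31.9 ± 9.93 CPM per peak (SD, n = 3). The groups overlapped over the 3 peaks (14.6 in unconfined library 2, 13.7 in confined library 1) and not over the 2. Neither region was tested. All these peaks had unconfined means below 23.5 CPM, and 84.3% of all such peaks had a higher confined mean. In 1 of the peaks beyond P2, chr4:135159938-135160637, every confined library was higher (9.84, 13.8 and 9.15 against 14.7, 49.7 and 23.4 CPM), as at 16.8% of all peaks.

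Cbfb, the gene of the shared partner (chr8:105170674-105217989, plus strand), had a single peak, over its start. This peak, chr8:105170560-105171259, held 45.9, 47.2 and 38.6 CPM unconfined and 29.3, 13.6 and 15.6 CPM confined (14, 58 and 38 against 10, 3 and 2 counts). Every confined library was lower, at 19.5 ± 8.58 against 43.9 ± 4.62 CPM (SD, n = 3). As a single peak its log2 fold change was -0.37 ± 0.42 (SE, edgeR adjusted p = 0.620) with TMM, and -1.01 with totals (adjusted p = 0.0670). It was the locus with the fewest counts, and with confined library 1 alone the value was -0.78.

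Of the 10 tested member peaks, 0 passed an edgeR adjusted p of 0.05, where 8.21% of the 9084 tested peaks did (5.79% higher and 2.42% lower in confined cells). DESeq2 and limma-voom called 0 of the 10 too, and 0 had an unadjusted edgeR p under 0.05. With totals as scaling 3 of the 10 were called lower, all of Runx1, where 25.2% of tested peaks were. All tested member peaks but that over Runx3 P1 reached the filter level in every unconfined library and not in every confined one. The filter thus favoured lower confined values among them. By plain separation of the CPM values, 10 of the 47 peaks had every confined library lower (5 of Runx1, 1 of Runx2, 3 of Runx3 and that of Cbfb), against 13.2% of all peaks. Every confined library was higher at 8 of the 47 (1 of Runx1, 6 of Runx2 and 1 of Runx3), against 16.8% of all peaks. The groups overlapped at the other 29.

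Levels in the unconfined libraries were set beside direction as a description only, since the split uses 1 side of the comparison and so fixes part of the direction. The 12 member peaks whose unconfined mean lay above 23.5 CPM, the mean over all peaks, all had a lower confined mean. Of the 35 below it, 33 had a higher one. Over all peaks the same split was seen, with 14.4% of 12962 peaks above that level and 84.3% of 29670 peaks below it being higher in confined cells. Runx2 had 14 of its 16 peaks below that level, and Runx1 12 of 18.

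**Figure D3:**
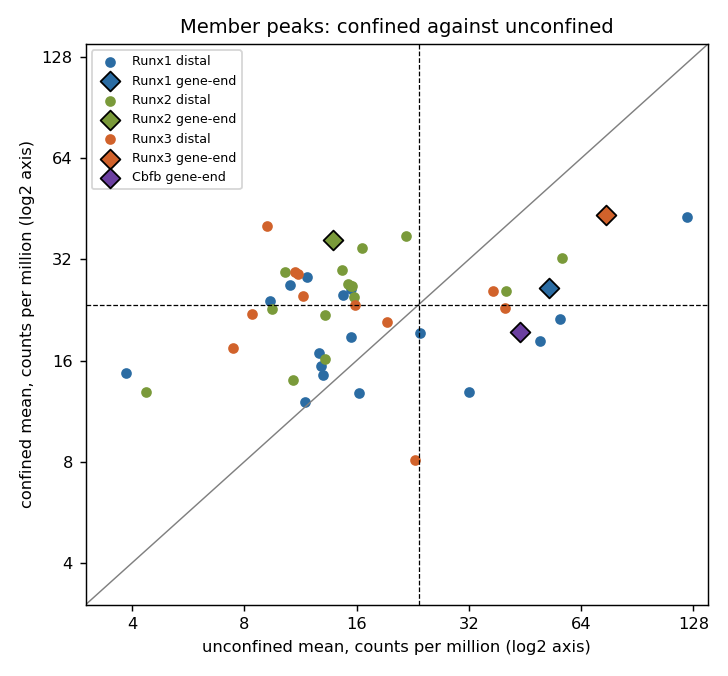
Confined against unconfined mean CPM (n = 3 each, log2 axes) of the 47 member peaks, with diamonds for the 4 gene-end peaks, the diagonal of equal means and dashed lines at 23.5 CPM. The 12 peaks right of the vertical dashed line all lie under the diagonal, and 33 of the 35 left of it lie above.

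Summed over its 16 peaks, the Runx2 locus held 298, 287 and 275 CPM in the unconfined libraries and 358, 416 and 483 CPM in the confined ones (91, 353 and 271 against 122, 92 and 62 counts). Every confined library was higher, at 419 ± 62.8 against 287 ± 11.5 CPM (SD, n = 3), and the locus sum rose with a log2 fold change of 0.60 ± 0.17 (SE, edgeR adjusted p = 0.0156). Of 10432 locus sums tested, 9.11% were called higher and 11.7% lower, so 1 of 4 members called is to be read against that. Locus sums hardly depended on the scaling, with a median log2 fold change of 0.01 with TMM and -0.02 with totals, and Runx2 stood at 0.56 with totals (adjusted p = 0.0201, where 8% of locus sums were called higher). With confined library 1 alone it was 0.33 (adjusted p = 0.449), and with DESeq2 0.62 (adjusted p = 0.0545). The call was also lost without unconfined library 2 (edgeR adjusted p = 0.0548), unconfined library 3 (0.103) or confined library 2 (0.0790).

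The Runx1 locus held 462, 487 and 503 CPM unconfined and 475, 420 and 234 CPM confined, and the means of 484 ± 20.5 and 376 ± 126 CPM (SD, n = 3) differed most in confined library 3. Its log2 fold change was -0.23 ± 0.17 (SE, edgeR adjusted p = 0.345; 95% interval -0.57 to 0.11), and -0.03 with confined library 1 alone. It was -0.40 without confined library 1 and -0.038 without confined library 3. Runx3 held 256, 302 and 248 CPM unconfined against 270, 348 and 304 confined, with overlap, and its log2 fold change was 0.25 ± 0.18 (SE, edgeR adjusted p = 0.331; interval -0.11 to 0.61). Cbfb stood at -0.95 ± 0.42 in this fit (SE, edgeR adjusted p = 0.0996), from the same counts as its single peak, with scaling set over locus sums. Per peak, the order in the unconfined libraries was Cbfb at 43.9, Runx1 at 26.9, Runx3 at 22.4 and Runx2 at 17.9 CPM, and in the confined ones Runx2 at 26.2, Runx3 at 25.6, Runx1 at 20.9 and Cbfb at 19.5 CPM. In the unconfined libraries no neighbours in this order overlapped, and in the confined libraries all did.

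**Figure D4:**
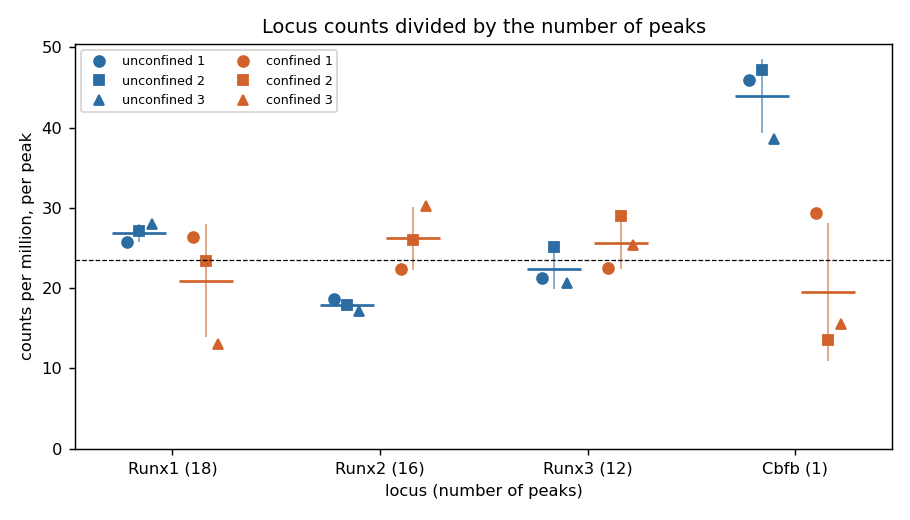
CPM per peak of each locus in each library (symbols), with group mean (horizontal line) and SD (vertical line, n = 3) and a dashed line at the mean over all peaks, 23.5 CPM. The unconfined libraries separate Cbfb, above the line, from Runx2, below it, and the confined means lie between 19.5 and 26.2 CPM.

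As parts of all counts in peaks, Runx2 took 0.0287 ± 0.00115% unconfined and 0.0419 ± 0.00628% confined (SD, n = 3), a ratio of 1.46, with every pair of libraries of the same batch higher in confined cells, as for Runx3. The difference of 0.0132 percentage points was 0.00228 where peaks were assigned by the nearest gene end alone. That rule kept only the start peak, since the others lay past 50 kb from an end of Runx2 or nearer to an end of Supt3. Its 16 peaks are 0.0375% of all peaks. Runx1 took 0.0484 ± 0.00205% and 0.0376 ± 0.0126%, Runx3 0.0269 ± 0.00290% and 0.0307 ± 0.00391%, and Cbfb 0.00439 ± 0.000462% and 0.00195 ± 0.000858%. Exact two-sided permutation gave p = 0.1 for Runx2 and Cbfb, the smallest value that 3 against 3 libraries allow, and p = 0.2 for Runx1 and Runx3. Adjusted over the 4 loci, all were 0.2. In confined library 3, the smallest, the Runx2 part of 0.0483% had an exact (Clopper-Pearson) 95% interval of 0.0371 to 0.0620%, and that of Cbfb, 0.00156%, one of 0.000189 to 0.00563%. These intervals cover counting error only. Runx1 made up 43.5, 43.4 and 47.2% of the member counts unconfined and 42.0, 35.1 and 22.6% confined, a difference in means of -11.5 percentage points (exact permutation p = 0.1, n = 3 each). It was -15.9 without confined library 1 and -6.18 without confined library 3.

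Gene-end and distal peaks of the same locus were then summed apart. The distal class also holds the P2 start peaks of Runx1 and Runx3, and the Runx2 peak 125 bp from an end of Supt3. No P2 start of Runx2 was listed, so a peak over it could not be told from the other distal ones. The distal Runx2 sum rose by a log2 fold change of 0.63 ± 0.18 (SE, edgeR adjusted p = 0.0143) and the distal Runx3 sum by 0.58 ± 0.22 (adjusted p = 0.0465), while the distal Runx1 sum stood at -0.09 ± 0.18 (adjusted p = 0.711). The call at Runx3 was lost with totals as scaling (0.45, adjusted p = 0.102), and with confined library 1 alone the values were 0.26 (adjusted p = 0.564) at Runx2 and 0.10 (adjusted p = 0.874) at Runx3. Each gene-end sum is the 1 gene-end peak of its locus. It repeats the counts of the single-peak fit, with scaling set over other features, and is not a separate result. On this scale the gene-end sums stood at -0.59 ± 0.40 at Runx1 (SE, edgeR adjusted p = 0.244), -0.51 ± 0.34 at Runx3 (adjusted p = 0.240) and -0.86 ± 0.42 at Cbfb (adjusted p = 0.112). The Runx2 gene-end peak did not pass the filter. As a sum with no filter it was 1.40 ± 0.45 (SE, edgeR adjusted p = 0.0309), where 1.06% of gene-end sums were called higher. The same peak was not called in the single-peak fit with no filter. Without confined library 3 the sum was 1.69 (edgeR adjusted p = 0.0277, 1.02% called higher). It was not called without unconfined library 1, 2 or 3 (edgeR adjusted p = 0.0627, 0.0519 and 0.134). In these fits it passed the filter only through the confined libraries, where it was higher, so they add no support. With confined library 1 alone it was 1.18. Over all genes, 24.5% of 6050 distal sums were called higher and 2.99% lower (median 0.47), and of 4948 gene-end sums 1.46% were higher and 27.7% lower (median -0.68). Of the 3 loci with distal peaks, Runx1 was the one whose distal estimate was below 0, and without confined library 3 it was 0.082. Without 1 library at a time, the distal calls at Runx2 and at Runx3 were each kept only without confined library 1 (sums of 0.49 to 0.73 and 0.34 to 0.73). Gene-end peaks took 17.6, 16.4 and 17.3% of the member counts unconfined and 14.5, 11.3 and 7.52% confined (17.1 ± 0.637 and 11.1 ± 3.50%, SD; exact permutation p = 0.1, n = 3 each), with 43.5 ± 2.26 and 28.7 ± 4.14% over all peaks linked to a gene.

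**Figure D5:**
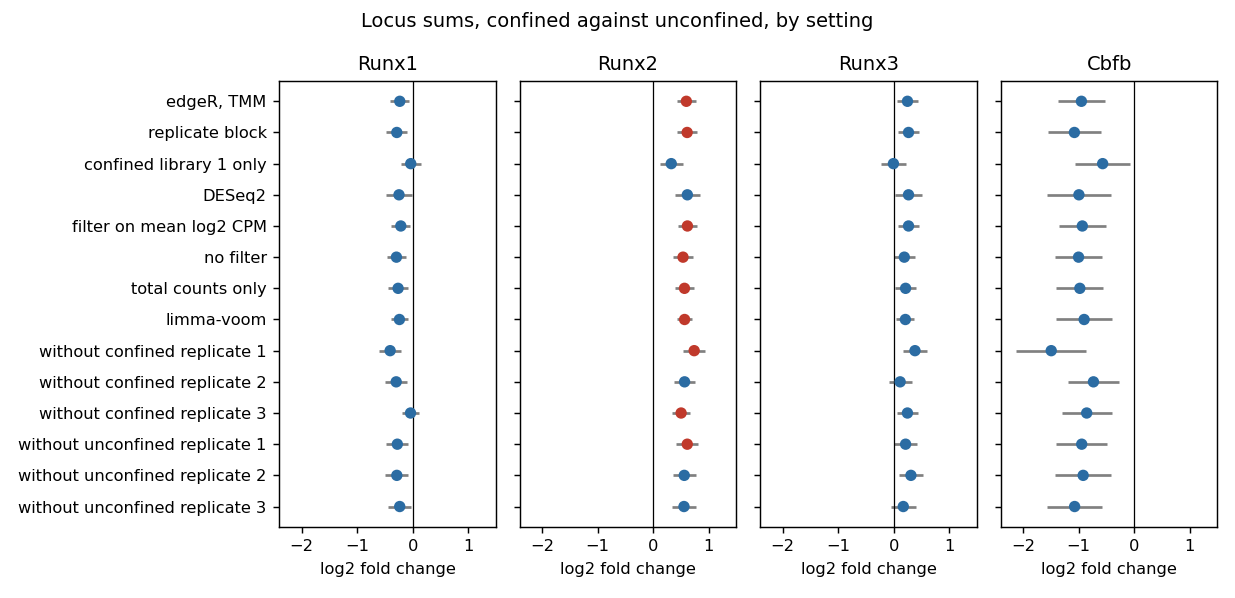
Log2 fold change of the 4 locus sums, confined against unconfined, with SE (bars), under each setting of the fit; red points passed an adjusted p of 0.05. Runx2 lies right of 0 in every setting and Cbfb and Runx1 left of 0, and the values with confined library 1 only are the nearest to 0.

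The 50 kb limit left out peaks close to it. On the right of Runx1 the farthest peak inside, at 42558 bp, held 4, 17 and 11 counts unconfined and 8, 6 and 0 confined, and the first outside, at 58004 bp, held 10, 32 and 24 against 11, 9 and 0. On the left, the peak inside at 27229 bp held 2, 19 and 6 against 3, 2 and 7, and the next, at 35683 bp, is nearer to Clic6. No Runx2 peak lay in its flanks. The first beyond its left end, at 63047 bp, held 52.5, 37.4 and 41.7 CPM unconfined and 26.4, 9.03 and 0 CPM confined, without overlap, and on the right the next lay at 430259 bp. Left of Runx3 the next peak, at 50716 bp, held 7, 46 and 36 counts against 15, 7 and 1. Right of it the farthest inside, at 14971 bp, held 1, 20 and 8 counts against 5, 8 and 9, and the next, at 25489 bp, is nearer to Clic4. The neighbours of the Cbfb peak belong to Ces4a (17721 bp from Cbfb) and D230025D16Rik (7138 bp), and the latter held 11, 52 and 42 against 5, 5 and 0 counts.

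Genes that work with RUNX factors were described from 4 lists. Of the 82 tested peaks on them, 1 was called higher and 4 lower, against 5.79% and 2.42% of all tested peaks. Among the 6 partners in the blood stem cell factor group that also holds Runx1 (the heptad: Tal1, Lyl1, Lmo2, Gata2, Fli1 and Erg), 12 of 45 peaks were tested, and 2 were lower, 0 higher. They were the peak at Lyl1, which encodes a helix-loop-helix factor (158 ± 53.8 to 24.2 ± 21.5 CPM; -1.64 ± 0.43 on the log2 scale, SE; adjusted p = 0.0130 by edgeR), and 1 within the gene of the zinc finger protein Gata2 (84.4 ± 14.0 to 19.5 ± 8.58 CPM; -1.34 ± 0.38; adjusted p = 0.0228). With the batch as a block, the Gata2 peak had an edgeR adjusted p of 0.0862. The Lyl1 and Gata2 peaks passed the filter on low counts only through the unconfined libraries, where they were higher, so these calls add no support. The median over the 12 was -0.29, against -0.02 over all tested peaks.

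Among 27 co-regulators, 41 of 118 peaks were tested, with a median of -0.24. The 2 lower ones, with 0 higher, were at Carm1, an arginine methyltransferase (-1.73, adjusted p = 0.00931, edgeR), and at Brpf1, a subunit of a histone acetyltransferase complex (-1.53, adjusted p = 0.0163, and 0.0662 with the block). The Carm1 and Brpf1 peaks likewise passed the filter only through the unconfined libraries, so these calls add no support. Among 32 blood target genes, of which 31 matched the annotation, 28 of 122 peaks were tested, with a median of 0.01. The 1 called, with 0 lower, lay inside Tcf7, a T lineage factor (15.6 ± 2.06 to 40.3 ± 8.79 CPM, 2.05 ± 0.52, SE, edgeR adjusted p = 0.0106). Its log2 fold change was 1.34 with totals as scaling and 0.85 with confined library 1 alone. The Tcf7 peak passed the filter on low counts only through the confined libraries, where it was higher, so this call adds no support. Among 11 bone target genes, 1 of 20 peaks could be tested, at Vegfa (-0.72, adjusted p = 0.301). In locus sums, where 9.11% of all were called higher and 11.7% lower, Lyl1 was 1 of 6 heptad genes called, lower. Of 23 co-regulators 1 was higher (Hipk2) and 5 lower (Brpf1, Carm1, Hdac1, Prmt1 and Sin3a). Tcf7 was the 1 of 22 blood targets called, higher, and Col1a2, a collagen gene of bone, the 1 of 6 bone targets, higher.

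Over the 6 libraries, the loci whose summed log2(CPM + 1) followed each member most closely, among 2954 genes with 300 or more counts, were Tnrc6a, Itsn1 and Bcas3 for Runx1 (Pearson r = 0.997, 0.995 and 0.995), Plxdc2, Atg4a and Gask1b for Runx2 (0.993, 0.992 and 0.992), Cryba4, Tgm2 and Boc for Runx3 (0.991, 0.986 and 0.984) and Tpst2, Vps52 and Pik3r3 for Cbfb (0.994, 0.991 and 0.986). Each r rests on 6 libraries, and 136, 68, 7 and 136 genes exceeded r = 0.95 for Runx1, Runx2, Runx3 and Cbfb. Values this high were thus not limited to the genes named. Runx3 had the fewest genes above that value, and its locus sums overlapped between the groups. The reason for the lower number was not tested.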

How the data were processed

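The authors deposited 1 table of raw counts per peak for the 6 ATAC-seq libraries and a list of 700 bp peaks. Tools named in the submitters' processing notes are SAMtools 1.14, R 4.2.0 and featureCounts, with the mm10 build. No aligner, peak caller, duplicate removal or transposase shift, and no choice of libraries for peak calling, is given in the sources used here. Genes came from RefSeq, GRCm38.p6; exons, introns and UTRs are not given. The sequence of distal peaks was not analysed here.

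Peaks, locus sums and sums by gene-end and distal class were each fitted over all features in edgeR 4.0.16 under R 4.3.3 (filterByExpr on low counts, TMM scaling, glmQLFTest on group alone, p-values adjusted by Benjamini-Hochberg). The script was tested on simulated counts. DESeq2 1.42.0, voom in limma 3.58.1, other scalings, filters and distances, a batch block and left-out libraries were alternatives. For shares, exact permutation tests were run with SciPy 1.17.1.

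The members, lists and tests were chosen with earlier results of these data known. Values per library are given for tested and gene-end peaks, for the 3 highest unconfined means per locus and at the distance limit. P2 peaks and peaks named for how their groups lay were added after values were seen. Pathway genes are named where a tested peak passed, or else by smallest p. One marker gene is not reported here.

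Same-numbered libraries share an experimental batch in the labels, which pairs them. Their deviations from their own group's mean gave r = 0.0437, 0.0597 and -0.0470 across peaks, so the pairing rests on the label.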

Additional observations from a re-analysis of the deposited data

How the results depend on the processing

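Member peaks hold few counts in confined libraries 2 and 3. Without 1 library at a time, the Runx2 locus sum ranged from 0.50 to 0.74 (log2 fold change) and its call was lost without unconfined library 2 (edgeR adjusted p = 0.0548), unconfined library 3 (0.103) or confined library 2 (0.0790). It was 0.62 with DESeq2 and 0.33 with confined library 1 only, past the threshold in neither. With that library alone Runx3 was -0.0037. The distal Runx2 sum ranged from 0.49 to 0.73 without 1 library, and kept its call without confined library 1 only. It did not pass with DESeq2 (0.64), no filter (0.45) or confined library 1 alone (0.26). The distal Runx3 sum ranged from 0.34 to 0.73 and was called only without confined library 1; it did not pass with totals (0.45), DESeq2 (0.60), limma-voom (0.50), no filter (0.41), confined library 1 alone (0.10), a 100 kb limit (0.47) or a 2 kb gene-end class (0.56). The distal Runx1 sum ranged from -0.26 to 0.082, the latter without confined library 3. By nearest gene end only the start peak stayed with the Runx2 locus, which could not be fitted, and the difference in its share of all counts was 0.00228 percentage points. Member peaks called higher ranged from 0 to 2 without 1 library: 1 without unconfined library 2, and 2 without confined library 1 or confined library 3. Those called lower were 3 with totals. Pathway peaks called higher were 3 with limma-voom, 2 with no filter, 0 with the filter on mean log2 CPM, 0 with confined library 1 only and 0 to 9 without 1 library. Those called lower were 23 with totals, 19 with no filter, 0 with confined library 1 only and 2 to 14 without 1 library.

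With the experimental batch as a replicate block the pathway peaks called lower were 2, and no member call changed (Runx2 locus 0.61, edgeR adjusted p = 0.0203; distal Runx2 0.64, 0.0225; distal Runx3 0.61, 0.0435). The paired p of the 4 shares of all counts was 0.25 for Runx2, Runx3 and Cbfb, the smallest that 3 pairs allow, and 0.5 for Runx1.

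Some tested peaks near 0 changed sign. The peak chr17:44654419-44655118 of Runx2 was -0.34 with confined library 1 only, -0.82 with no filter, -0.56 with totals and -0.32 to 0.12 without 1 library, and chr17:44776894-44777593 was 0.015 with limma-voom. The Runx3 peak chr4:135080055-135080754 was -0.011 with the block, -0.60 with confined library 1 only, -0.80 with no filter, -0.57 with totals, -0.017 with limma-voom and -0.42 to 0.073 without 1 library. At chr4:135098036-135098735 it was 0.10 with the block, 0.070 with DESeq2, 0.054 with the filter on mean log2 CPM, 0.12 with limma-voom and -0.54 to 0.10 without 1 library. The Runx3 P1 peak was 0.0057 with DESeq2, 0.056 with that filter and 0.079 with limma-voom. The cause of these changes was not tested.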
